A study of Mus musculus with 7 samples.

Results

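R-spondins are secreted proteins that strengthen WNT signalling. They bind the LGR receptors and the membrane ubiquitin ligases RNF43 and ZNRF3, which otherwise tag Frizzled receptors for removal from the cell surface, so that more WNT receptors stay there. The ligases and Lgr5 are themselves switched on by WNT/beta-catenin signalling in many tissues, and Rspo2 is known in the mouse as an R-spondin of the apical ectodermal ridge (AER) that is needed for limb outgrowth.

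The genes described here are the 4 R-spondin genes (Rspo1 to Rspo4), the 3 LGR receptor genes (Lgr4, Lgr5 and Lgr6) and the ligase genes Rnf43 and Znrf3. They were taken by name from the array annotation, which gave 9 genes with 10 probes among 36373 gene names with 55681 probes. Lgr6 had 2 probes and every other gene had 1, each printed in 1 spot. The tissue was taken from C57/Bl6 mouse forelimbs at embryonic day 11.5. It was profiled on 3 arrays of microdissected AER, the signalling epithelium along the distal edge of the limb bud, and 4 arrays of posterior limb surface ectoderm, the control. No allele or agent is named for either group, and each array held a pool from 2 to 3 mice, so p-values measure the spread between these pools. In such bulk tissue, fewer cells of a type and less RNA per cell cannot be told apart.

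Signal is given as log2 of the processed Cy3 intensity relative to the 75th percentile of the same array, so that 0 is that percentile. The percentile lay between 341 and 563 intensity units in AER and between 257 and 444 units in ectoderm, and 0 probes were saturated. Ectoderm replicates 2 and 4 stood closest together, at r = 0.995 across genes, against 0.985 to 0.990 for the other ectoderm pairs, and their file names carry the same tissue number. They may therefore be 1 sample, although the labels number them as separate replicates and n = 4 counts them apart. Averaged as 1 sample, they left 2270 genes called in place of 3266, and of the genes described here Rspo1 and Lgr4 lost their calls. The AER label holds in the markers: the mean of 8 AER markers was 2.89 to 3.43 in AER and -1.53 to 0.32 in ectoderm, with Fgf8 higher by 7.01 (log2). Pan-epithelial markers were measured in both groups, at 1.93 to 2.15 in AER and 0.16 to 0.69 in ectoderm, so they too were higher in AER. Limb mesenchyme markers averaged 2.35 to 2.63 in AER and were higher in ectoderm, at 4.65 to 5.09. Muscle progenitor markers averaged -4.39 to -2.74 in AER and 0.67 to 1.36 in ectoderm. The ectoderm arrays thus held mesenchyme and muscle transcripts besides epithelial ones, and mesenchyme transcripts were read on the AER arrays too. The markers do not show the ectoderm arrays to be surface ectoderm alone. Of the endothelial, erythroid and neural crest markers, 0 of 6, 0 of 6 and 0 of 4 tested genes passed (limma; 0, 2 and 2 at an unadjusted p under 0.05). All 7 arrays shared 1 slide. Its row 1 held 1 AER array and 3 ectoderm arrays, and its row 2 held 2 AER arrays and 1 ectoderm array. Differences within a row therefore rest on a single array in 1 group, and are given below as values. The tallies over alternative settings still count both rows.

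The probes that carry the results below are 60 bases long, and the first 30 bases of 6 of them are shown to mark which transcript was read. For Lgr6 both are shown because they were above background on different arrays. On the mm9 build the Rspo1 probe lies on chromosome 4 from 124686270 to 124686329, the Rspo2 probe on chromosome 15 from 42852727 to 42852786, and the Rspo3 probe on chromosome 10 from 29172930 to 29172989. The Lgr5 probe lies on chromosome 10 from 114887403 to 114887462. On chromosome 1, the first Lgr6 probe below runs from 136883782 to 136883841 and was designed on a RefSeq transcript. The other runs from 136880538 to 136880597 and was designed on a cDNA clone. The Rspo1 probe is on the plus strand and the others are on the minus strand. The exon or untranslated region under each probe was not looked up. Over the 45 pairs of the 10 probes, the longest run of bases shared by any pair was 9.
Rspo1: ccgtggtacacgtcacggatgacctgactt
Rspo2: ccttaggtcagtttgtccttagattatgaa
Rspo3: ggatactactttctaacaaggtgtatctag
Lgr5: catgtaaatacgtagtgcttgtaaatagat
Lgr6, A_52_P616580: tggagaagagctcctgcgactccacccaag
Lgr6, A_52_P75777: gtctctgttctacatatttggatctgacaa

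The comparison of AER with ectoderm asked which of these genes mark the ridge. Rspo2 and the ligase genes Rnf43 and Znrf3 were higher in AER, while Rspo3 and Lgr5, and by a narrow margin Rspo1 and Lgr4, were lower. A gene was tested when a probe stood clear of background (the scanner's own flag) on 3 or more of the 7 arrays, and 8 of the 9 genes met that rule. Lgr6 did not. Of the 8 genes, 3 were higher, 4 were lower and 1 did not pass at an adjusted p of 0.05 (limma's moderated test, two-sided, Benjamini-Hochberg over 20826 genes). Among all genes tested 15.7% passed, 7.03% higher and 8.65% lower in AER, so that 44.8% of the calls were higher. That share was 57.4% with the percentile taken over probes detected on every array. With each array centred on pan-epithelial markers, which lowers every gene by 1.65 (log2), 210 genes were called higher and 19718 lower. The median size of the difference, regardless of direction, was 2.52 for the 8 genes and 0.31 for all genes (log2). The arrays of the 2 groups did not overlap for any of the 8 genes, and did not overlap for 30.3% of all genes. These counts describe the 8 genes that could be tested, not all 9. The genes were chosen with earlier results of these data known, so the contrast with all genes is not a test.

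**Figure D1:**
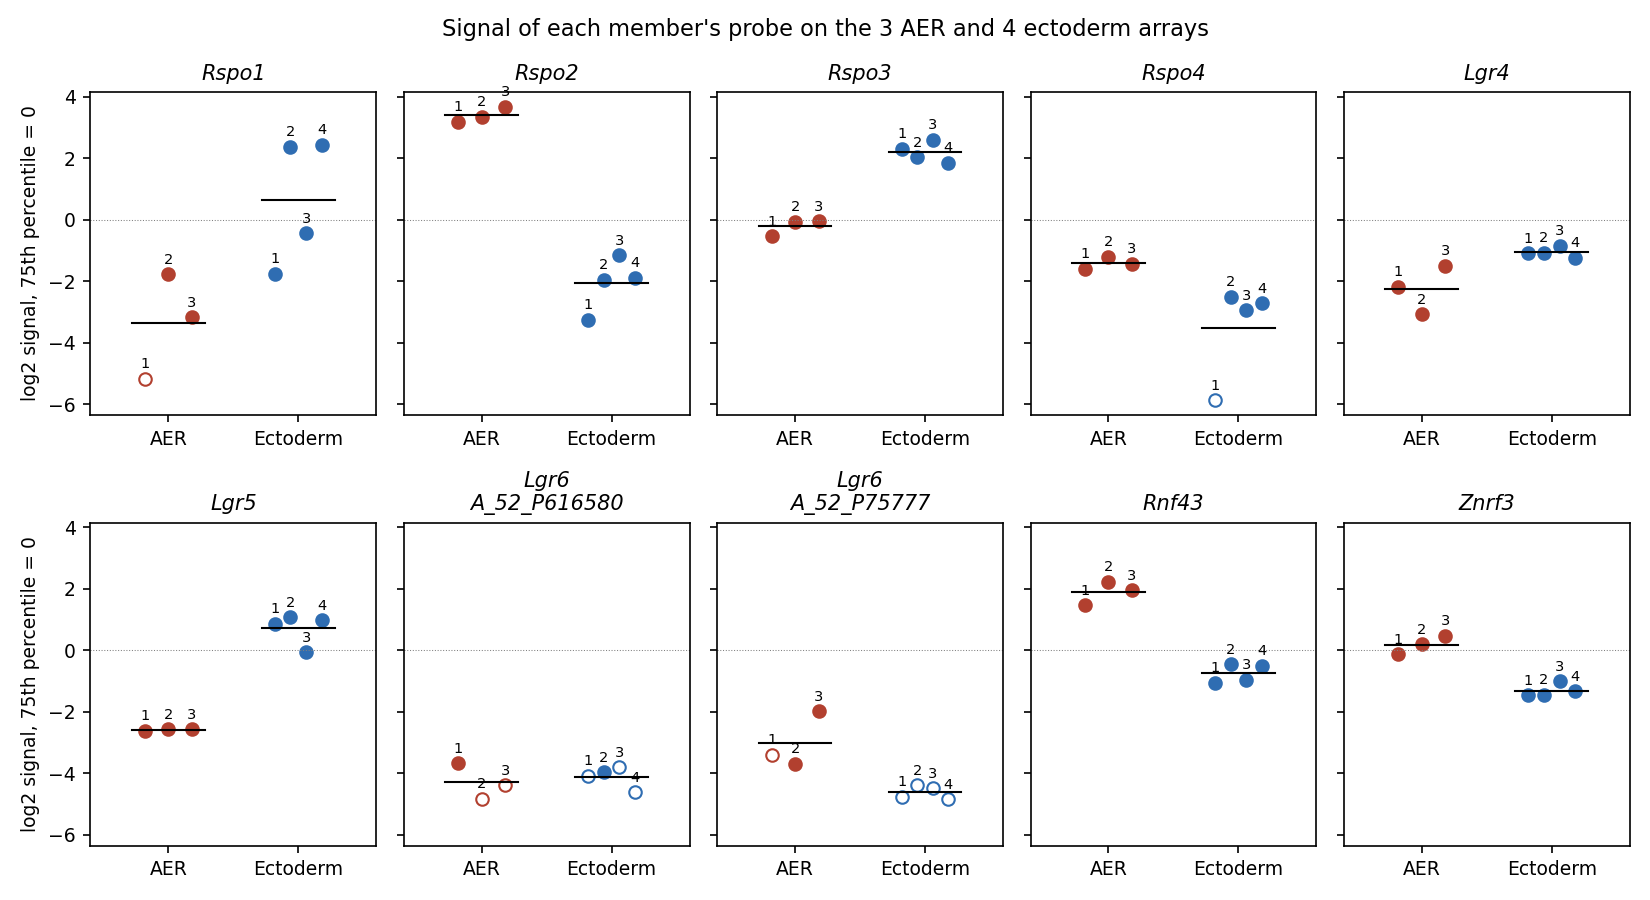
Signal of each probe on the 3 AER arrays (red, left) and the 4 ectoderm arrays (blue, right), as log2 relative to the array's 75th percentile. Small digits are replicate numbers, open circles are spots not well above background, and lines are group means; Rspo2 sits above 3 on all AER arrays, and Rspo1 is split within the ectoderm arrays, with replicates 2 and 4 at 2.37 and 2.44.

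Among the ligands, Rspo2 had the largest difference of the 8 genes. Its processed signal was 3100, 5760 and 5020 intensity units on AER replicates 1 to 3, against 42.9, 114, 115 and 93.3 units on ectoderm replicates 1 to 4. On the log2 scale this was 3.41 ± 0.25 in AER (SD, n = 3) and -2.06 ± 0.87 in ectoderm (SD, n = 4). The lowest AER array lay 4.35 above the highest ectoderm array. Rspo2 was therefore 44.4-fold higher in AER (95% CI 22.7 to 86.8; log2 difference 5.47 ± 0.42, SE; adjusted p = 7.6e-05, limma). All 4 ectoderm arrays were still well above background, so low Rspo2 signal was present in the ectoderm samples. AER markers were present on those arrays too: ectoderm replicate 3, with the highest Rspo2 value at -1.16, also had the highest mean of AER markers at 0.32, against -1.53 to -1.15 on the other ectoderm arrays. What part such ridge transcripts had in the Rspo2 signal of ectoderm was not tested. The fold was 17.6 with a background correction that adds an offset (normexp). With pan-epithelial centring Rspo2 was 14.1-fold higher. The log2 difference was 5.31 within slide row 1 and 5.40 within slide row 2.

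Rspo3, which in the mouse limb is known to act together with Rspo2, went the opposite way. Its log2 signal was -0.53, -0.07 and -0.05 on AER replicates 1 to 3, against 2.31, 2.04, 2.60 and 1.86 on ectoderm replicates 1 to 4. The groups were 1.91 apart at their nearest arrays. Rspo3 was lower in AER by a log2 difference of -2.42 ± 0.22 (SE), or 5.34-fold (95% CI 3.79 to 7.52; adjusted p = 0.000157, limma). Its signal remained well above background on all 3 AER arrays. Limb mesenchyme markers were lower on the same AER arrays for 10 of 12 genes, with all 12 above background on at least 1 AER array but only 10 on the array with the fewest. Lum and Dcn, proteoglycan genes of connective tissue, had the largest log2 differences, -8.09 and -7.15 (2 of 3 AER arrays above background for each; adjusted p = 3.18e-05 and 2.42e-05, limma). Prrx2 and Twist1, which did not pass, had differences of 0.40 and -0.13 (adjusted p = 0.227 and 0.682, limma). Among the ectoderm arrays, replicate 3 had the highest Rspo3 value, at 2.60, and the lowest mean of mesenchyme markers. That mean was 4.65, against 5.07 to 5.09 on the other ectoderm arrays. The part of mesenchyme in the Rspo3 difference was not tested.

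Rspo1, known for its role in ovary development, was split within the ectoderm group. Its log2 signal was -5.16, -1.78 and -3.18 on AER replicates 1 to 3, the first of them not well above background. On ectoderm replicates 1 to 4 it was -1.75, 2.37, -0.44 and 2.44. Replicates 2 and 4 thus stood at 2290 and 1880 intensity units, and replicates 1 and 3 at 121 and 189 units, close to the 164 units of AER replicate 2. The highest AER array and the lowest ectoderm array were 0.02 apart on the log2 scale. Rspo1 was lower in AER by -4.02 ± 1.15 (SE), or 16.3-fold (95% CI 2.66 to 99.8), with adjusted p = 0.0471 (limma), just inside the threshold. Under normexp the fold was 6.80 (adjusted p = 0.0196). The call was lost when any array other than ectoderm replicate 1 was left out, with adjusted p from 0.0538 to 0.124. Without ectoderm replicates 2 and 4, a choice made after the values had been seen, the difference was -2.27 with adjusted p = 0.235. With those replicates averaged as 1 sample it was -3.44 with adjusted p = 0.108. The call was kept with the slide row as a block (-5.08), the replicate number as a block (-3.43) and array weights (-4.91). Adjusted p was 0.0121, 0.000199 and 0.0427 (limma).

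The gap between ectoderm replicates 2 and 4 and the other ectoderm arrays was 2.81 for Rspo1 (log2), or 7.02-fold. Of 18801 tested genes well above background on all 4 ectoderm arrays, 6 had a gap at least as wide between these 2 pairs, Rspo1 included, all 6 with replicates 2 and 4 higher. The other 5, named here after their values were seen, were the body-axis genes Hoxc4 and Hoxc6 with gaps of 4.89 and 3.79, the transcription factor genes Irx3 and Rfx4 with 3.61 and 3.05, and the surface antigen gene Ly6c1 with 3.24. A further 12 genes had such a gap but lay below background on 1 or more of those arrays, so their gaps are not measured. Mesenchyme markers averaged 5.09 and 5.09 on replicates 2 and 4, against 5.07 and 4.65 on replicates 1 and 3. Muscle markers averaged 1.10 and 1.15 on replicates 2 and 4, against 1.36 and 0.67 on replicates 1 and 3, and so overlapped. Pan-epithelial markers averaged 0.57 and 0.69 on replicates 2 and 4, against 0.20 and 0.16 on replicates 1 and 3. Neural crest markers averaged -1.30 and -1.30 on replicates 2 and 4, against -1.92 and -2.29 on replicates 1 and 3. Endothelial markers averaged -0.04 and -0.01 on replicates 2 and 4, against -0.46 and -0.40 on replicates 1 and 3. The part of any of these genes in the Rspo1 split was not tested.

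Rspo4, whose human counterpart is needed for nail formation, gave higher values in AER without passing the test. Its log2 signal was -1.59, -1.20 and -1.43 on AER replicates 1 to 3, against -5.87, -2.51, -2.94 and -2.71 on ectoderm replicates 1 to 4. Every AER array lay above every ectoderm array, and ectoderm replicate 1, the only one not well above background, lay far below the others. The log2 difference was 2.10 ± 0.73 (SE; 95% CI 0.43 to 3.78) with adjusted p = 0.0908 (limma). Without ectoderm replicate 1 the difference was smaller, at 1.31, and passed with adjusted p = 0.00415. It was 1.00 with adjusted p = 0.0113 under normexp.

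**Figure D2:**
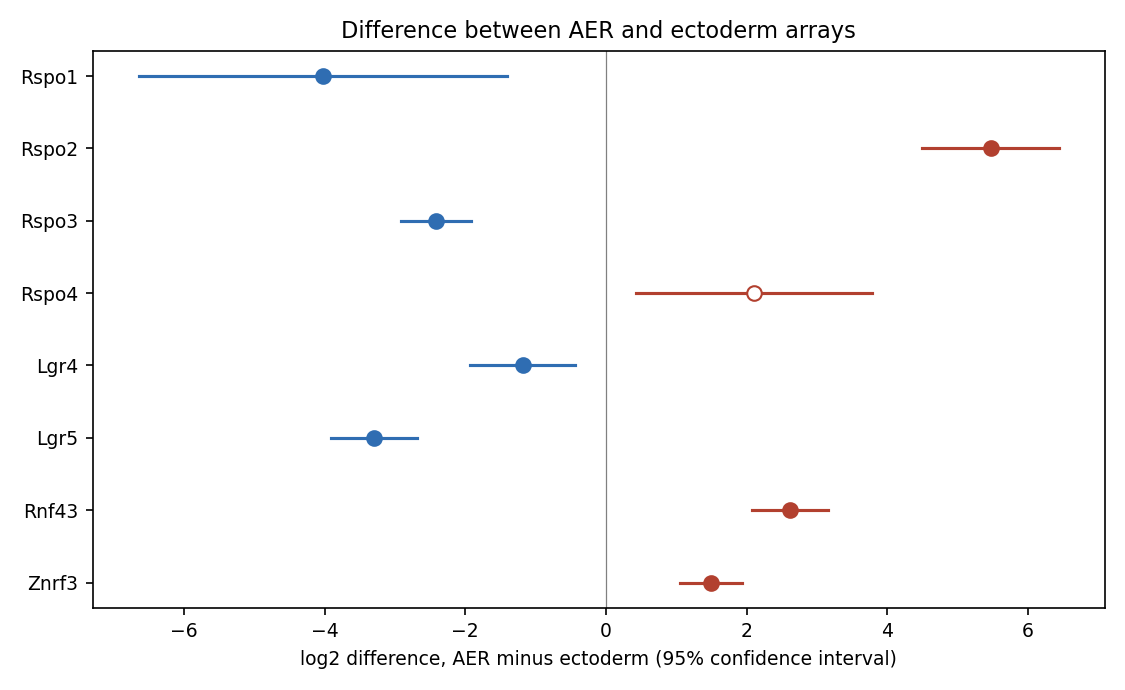
Log2 difference, AER minus ectoderm, with its 95% confidence interval from limma (3 AER and 4 ectoderm arrays). Filled circles passed at adjusted p of 0.05 and the open circle (Rspo4) did not. Lgr6 was not tested and is not drawn; Rspo1 has the widest interval, from -6.64 to -1.41.

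Of the receptor genes, Lgr5, a marker of stem cells in intestine and hair follicle, was the most clearly separated. Its log2 signal was -2.61, -2.56 and -2.56 on AER replicates 1 to 3, against 0.87, 1.07, -0.07 and 0.99 on ectoderm replicates 1 to 4. The AER arrays were nearly equal (SD 0.02), and ectoderm replicate 3 was the lowest of its group. Lgr5 was lower in AER by -3.30 ± 0.27 (SE), or 9.82-fold (95% CI 6.40 to 15.1; adjusted p = 0.000101, limma). The fold was 6.04 under normexp. The difference was -3.23 within slide row 1 and -3.55 within slide row 2. Muscle progenitor markers were lower in AER too, for 7 of 7 tested genes, with 2 to 6 of them above background per AER array and 6 or 7 per ectoderm array. The muscle regulator gene Myod1, above background on 1 of 3 AER arrays, had a log2 difference of -7.10 and the muscle precursor gene Lbx1 of -5.31 (adjusted p = 2.36e-05 and 3.73e-05, limma). Limb mesenchyme markers were also lower in AER, for 10 of 12 genes. Ectoderm replicate 3 had the lowest ectoderm mean of both lists, at 0.67 for muscle and 4.65 for mesenchyme. Ectoderm replicate 1 had the highest muscle mean, at 1.36, but a lower Lgr5 value than replicates 2 and 4. On AER replicates 1 to 3 the muscle mean was -4.39, -3.34 and -2.74, while Lgr5 was nearly equal. The part of muscle or mesenchyme in the Lgr5 difference was not tested.

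Lgr4, the most widely expressed receptor of the family, was lower by a smaller amount. Its log2 signal was -2.17, -3.07 and -1.49 on AER replicates 1 to 3, against -1.09, -1.08, -0.84 and -1.24 on ectoderm replicates 1 to 4. AER replicate 3 was only 0.25 below the nearest ectoderm array. The difference was -1.18 ± 0.33 (SE), or 2.27-fold (95% CI 1.35 to 3.81; adjusted p = 0.0426, limma). Of the 7 arrays, leaving out AER replicate 3 alone kept the call, and leaving out any other lost it (adjusted p from 0.0628 to 0.0921). With the slide row as a block the call was also lost (-1.11, adjusted p = 0.107). Within slide rows 1 and 2 the difference was -1.17 and -1.04.

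Lgr6, a marker of epidermal stem cells, was near background on both probes and was not tested. The probe A_52_P616580 read 26.9, 19.8 and 18.8 intensity units on AER replicates 1 to 3, against 24.3, 28.6, 18.5 and 14.2 units on ectoderm replicates 1 to 4. It was well above background on 1 AER array and 1 ectoderm array, and the groups overlapped. The probe A_52_P75777 read 32.6, 43.7 and 99.7 units on AER replicates 1 to 3, against 15.1, 21.3, 11.5 and 12.1 units on ectoderm replicates 1 to 4. It was well above background on AER replicates 2 and 3 and on 0 ectoderm arrays, and 2.01-fold higher in AER with the ectoderm arrays set to a floor. That floor is each ectoderm array's dimmest probe well above background, or the probe's own signal where that is higher. It is not a strict limit of detection. On AER replicate 1 the probe read 32.6 units without being well above background, while the dimmest probe that was read 15 units. Which transcript forms the probes read was not tested.

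Both ligase genes rose in AER. Rnf43 had log2 signals of 1.46, 2.23 and 1.96 on AER replicates 1 to 3, against -1.05, -0.45, -0.96 and -0.50 on ectoderm replicates 1 to 4. The nearest arrays of the groups were 1.91 apart. It was 6.16-fold higher (95% CI 4.24 to 8.95; log2 difference 2.62 ± 0.24, SE; adjusted p = 0.00016, limma), and 1.96-fold higher after centring on pan-epithelial markers (adjusted p = 0.00182). Its probe lies on chromosome 11 of mm9, from 87548958 to 87549017.

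Znrf3, the paralogue of Rnf43, rose by less. Its log2 signal was -0.12, 0.21 and 0.48 on AER replicates 1 to 3, against -1.45, -1.44, -1.01 and -1.33 on ectoderm replicates 1 to 4. The groups did not overlap, with 0.89 between their nearest arrays. The difference was 1.50 ± 0.19 (SE), or 2.83-fold (95% CI 2.09 to 3.82; adjusted p = 0.00106, limma). After centring on pan-epithelial markers, which were themselves higher in AER for 18 of 20 genes, it was -0.15 with adjusted p = 0.603. The Znrf3 call thus held relative to all genes and was lost relative to epithelial genes. Within slide rows 1 and 2 the difference was 1.18 and 1.68.

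Other genes of the pathway were read from lists chosen by role. Frizzled receptor genes, whose products RNF43 and ZNRF3 remove, divided: of 10 genes 3 rose in AER, 3 fell and 4 did not pass, with a median of 0.00 against -0.08 for all genes (log2). Fzd10 was higher, at 5.01 to 5.17 in AER and 3.19 to 3.52 in ectoderm (difference 1.76, adjusted p = 0.000105, limma). After epithelial centring it was 0.10. Fzd9, Fzd2 and Fzd8 were lower, with differences of -2.00, -2.05 and -1.07 (adjusted p = 0.000157, 0.000615 and 0.00478, limma). Fzd6 and Fzd1, named because they complete the count, were higher by 1.38 and 1.10 (adjusted p = 0.0369 and 0.042), and turned to -0.27 and -0.55 after epithelial centring. Under normexp neither passed, at 0.86 and 0.69 (adjusted p = 0.053 and 0.228, limma), which left 1 gene higher and 3 lower. With epithelial centring 0 were higher and 7 lower.

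The other partners of R-spondins and the beta-catenin destruction complex gave no call on the reported scale. Of 10 partner and transducer genes 0 passed (limma; 2 at an unadjusted p under 0.05), with a median of -0.07. The WNT co-receptor genes Lrp5 and Lrp6, named for their role and not by the size of their p, had differences of -0.01 and 0.06, and the dishevelled gene Dvl3, through which RNF43 and ZNRF3 reach Frizzled, had -0.40. Values for Ror2, a WNT5A receptor gene, the syndecan gene Sdc4 and the BMP receptor gene Bmpr1a were -0.42, 0.70 and -0.32 (adjusted p = 0.102, 0.138 and 0.277, limma). Ror2 passed under normexp, at -0.73 with adjusted p = 0.0265. With the authors' deposited values both Ror2 and Sdc4 passed, at -0.67 and 0.59 (adjusted p = 0.0425 and 0.0374, limma). Of 6 genes of beta-catenin and its destruction complex 0 passed (limma; 0 at an unadjusted p under 0.05), with a median of 0.06. Ctnnb1, encoding beta-catenin, differed by 0.12, and the complex genes Axin1, Apc and Gsk3b by 0.29, 0.36 and -0.13. With epithelial centring, which lowers all genes alike, all 10 partner genes and all 6 genes of the complex were called lower.

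Targets and feedback genes of WNT/beta-catenin signalling, the members left out, were split as well. Of 13 tested genes 6 were higher, 3 were lower and 4 did not pass, with a median of 0.57, against 7.03% higher and 8.65% lower among all genes. Dkk4 was below the signal filter. Under normexp 4 were higher and 3 lower, since Axin2 and Tnfrsf19 no longer passed (0.09 and 0.56, adjusted p = 0.773 and 0.176, limma). With epithelial centring 0 were higher and 8 lower, Axin2 and Tnfrsf19 among the lower (-1.08 and -0.72). The secreted WNT inhibitor gene Notum was higher by 1.50 and the nuclear effector gene Lef1 by 1.24 (adjusted p = 0.000527 and 0.00059, limma). They turned to -0.16 and -0.41 after epithelial centring. Dkk1 and Tcf7, higher by 2.22 and 1.81, stayed positive there at 0.56 and 0.15 without passing (adjusted p = 0.149 and 0.602, limma). The transcription factor gene Sp5 was lower with a difference of -3.68 (-2.67 under normexp), as was Myc with -2.38 (adjusted p = 0.000203 and 0.000472, limma). Rnf43 and Znrf3 had the direction of Notum and Lef1, and Lgr5 had the direction of Sp5 and Myc. As the list held calls in both directions, any called gene would share a direction with part of it, so no conclusion is drawn. After epithelial centring, of Rnf43, Znrf3, Notum and Lef1 only Rnf43 stayed positive.

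**Figure D3:**
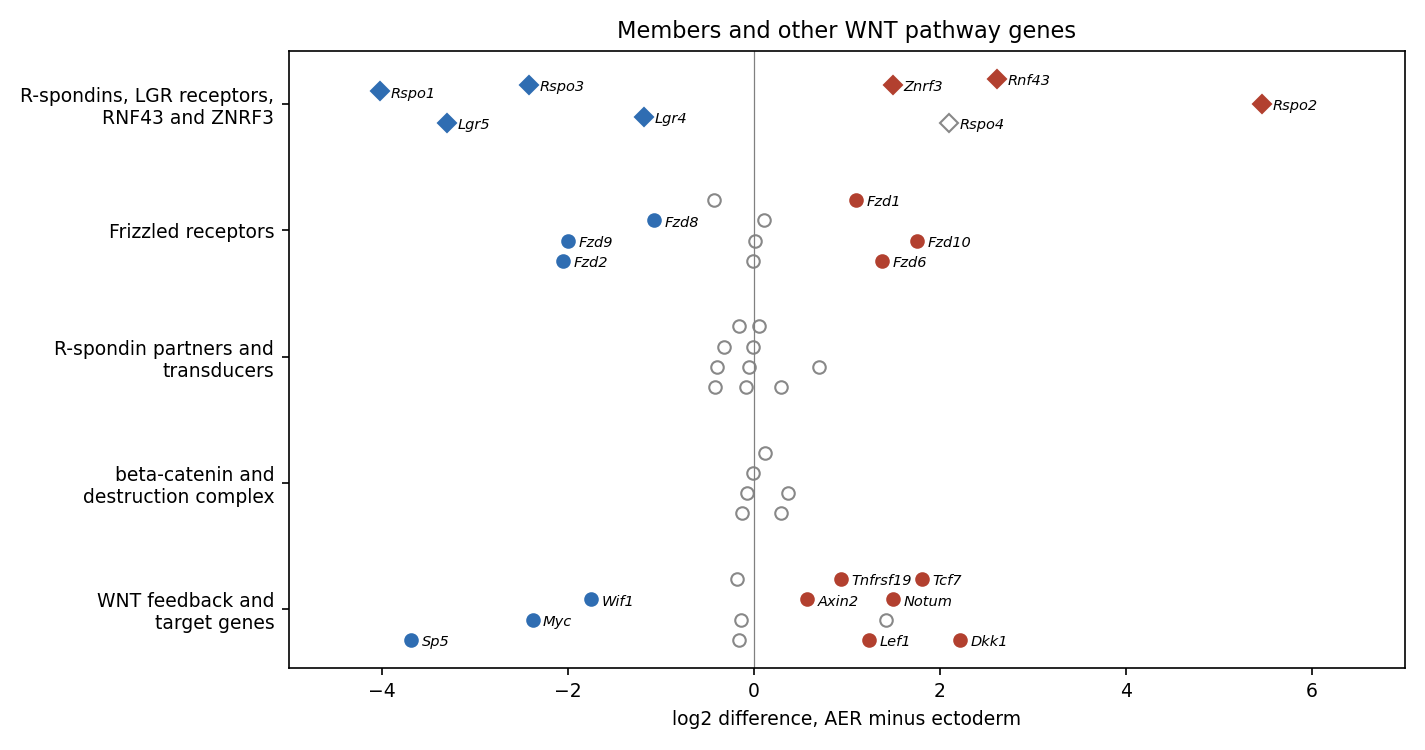
Log2 difference, AER minus ectoderm, of the 8 tested members (diamonds) and of the other pathway genes by role (circles). Filled symbols passed at adjusted p of 0.05 (red higher, blue lower in AER) and open symbols did not; the 10 partner genes and 6 destruction complex genes lie between -0.42 and 0.70.

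The genes most like Rspo2 and Lgr5 over the 7 arrays were taken by the root-mean-square difference of the centred log2 profiles, among 14126 other genes with a RefSeq symbol. Closest to Rspo2 were the citrate transporter gene Slc13a5 (0.43), the sphingolipid synthesis gene Sptlc3 (0.46) and the enamel-linked gene Fam20a (0.47). All 3 were above background on every AER array, and on 1, 0 and 3 ectoderm arrays. Closest to Lgr5 were the TGF-beta co-receptor gene Tgfbr3 (0.15), the myoblast fusion gene Mymk (0.17) and the small heat shock gene Hspb2 (0.18). Their log2 differences were -3.26, -3.35 and -3.49, beside -3.30 for Lgr5. These likenesses are over 7 arrays in 2 groups, so the profiles share the group difference.

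RefSeq promoter windows (GRCm38.p6) were at hand for 5 of the 9 genes, Rspo1, Rspo4, Lgr4, Lgr6 and Rnf43, the last with 2 starts. The TCF/LEF motif letters CTTTGAT and CTTTGAA were searched on both strands in the 250 bases before each start. They were found in 0 of the 6 windows, and in 7.48% of 32851 windows of all genes. This says only that these letters are not in these windows.

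**Figure D4:**
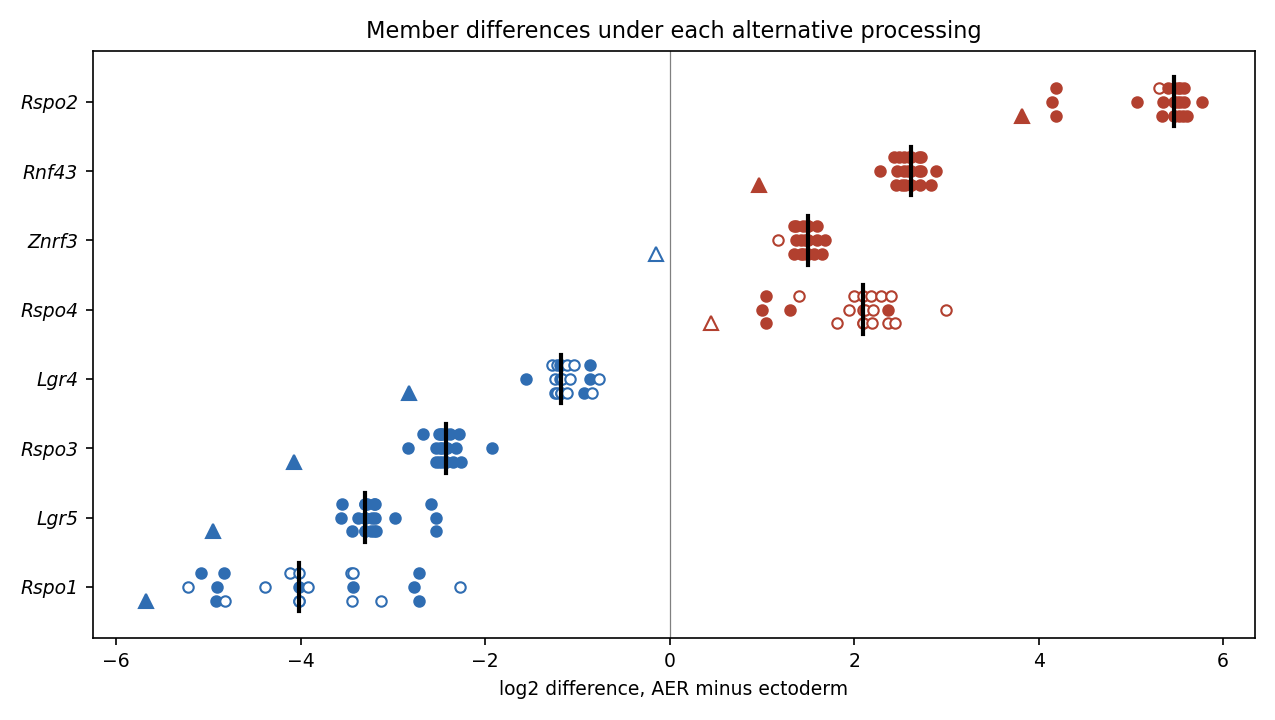
Log2 difference, AER minus ectoderm, of the 8 tested members under 23 alternative settings (circles, with triangles for centring on pan-epithelial markers); black lines are the reported values. Filled symbols have an adjusted p under 0.05. Rspo3, Lgr5 and Rnf43 kept their direction and call in all 23, while Rspo1 lost its call in 12 and Lgr4 in 14. The 23 are not separate checks, and include both slide rows, each with a single array in 1 group.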

How the data were processed

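Total RNA of 75 ng per array was labelled with Cy3 and hybridised to 1-colour Agilent arrays, per the labels' protocols. The authors deposited 1 scanner file per array, whose processed signal is an intensity, background-subtracted and detrended by Agilent Feature Extraction 10.7.3.1, per the file headers, and not scaled across arrays. Mean spot and local background intensities, and flags per spot, are in the same deposited files. The deposited value table is log2, and normexp with an offset of 50 and quantile normalization gave its values to within 0.000108; limma is named in the submitters' processing notes.

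Control and outlier spots were left out, spots of 1 probe averaged on the log2 scale, and the 75th percentile of an array's gene probes subtracted from its values. Of 55681 probes, 28280 were well above background on at least 3 of 7 arrays. The brightest probe stood for a gene. Gene names came from RefSeq accessions (26300 probes), symbols (2044), older symbols (355) or the file (26982). The groups were tested in R 4.3.3 through lmFit and eBayes of limma 3.58.1, group as the single term, with Benjamini-Hochberg adjustment over 20826 genes. The fit was also run on simulated data, and the outcome is not given here or used as support. Precision is limited by the number of arrays.

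The genes and lists were chosen with earlier results of these data known. Named are the 9 genes, up to 4 genes of smallest p per pathway list, and the 3 closest profiles to Rspo2 and to Lgr5. Outside that rule, Fzd1, Fzd6, Axin2, Tnfrsf19, Dkk1, Tcf7, Lrp5, Lrp6, Dkk4, marker genes and the genes that split the ectoderm arrays like Rspo1 were named after their values were seen. Alternatives covered background, scaling, filter, probe choice, weights, variance prior, slide row, replicates and pairing. Whether replicate numbers in the titles pair the samples was not settled, and the reported fit leaves them unpaired.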

Additional observations from a re-analysis of the deposited data

Results flagged for a closer look

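Ectoderm replicate 1 stood apart for Rspo4 (probe A_55_P2163639), at -5.87 on the log2 scale, while the other ectoderm arrays lay between -2.94 and -2.51. Its gap to the nearest array made up 0.872 of the group's range. The spot was not well above background on that array. Such a gap is expected by chance in about 1 of 20 groups of this size, and 10 probes were examined.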

How the results depend on the processing

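The AER calls of Rspo3, Lgr5 and Rnf43 kept their direction and side of the threshold in all 23 alternatives, Rspo2 in 22 and Znrf3 in 21. Of the 23, 2 are the slide rows, which say nothing about stability. Each has a single array in 1 group, assumed to vary like the other group. The 23 are not separate checks, since normexp with quantile normalization repeats the deposited values. Averaging a gene's probes also leaves the differences of these genes unchanged. The main count of 3266 genes (4243 probes) became 19928 genes (26978 probes) with centring on pan-epithelial markers, which lowers every gene by 1.65, and there Znrf3 was -0.15 (limma adjusted p = 0.603). The cause was not tested where fewer arrays or another centring do not show it. Within slide row 1 the count was 653 genes (886 probes), and calls were lost for Rspo1 at -5.22, Rspo2 at 5.31, Lgr4 at -1.17 and Znrf3 at 1.18. Within slide row 2 it was 1390 genes (1688 probes), and Lgr4 at -1.04 lost its call. Leaving out ectoderm replicates 2 and 4, an alternative chosen after seeing the data, gave 1570 genes (1974 probes), with Rspo1 at -2.27 (limma adjusted p = 0.235) and Lgr4 at -1.28 (limma adjusted p = 0.164). Averaging them gave 2270 genes (2927 probes), with -3.44 (limma adjusted p = 0.108) and -1.22 (limma adjusted p = 0.0837). With the percentile taken over probes detected on every array, Rspo1 was -3.92 (limma adjusted p = 0.052) and Lgr4 -1.08 (limma adjusted p = 0.0553), and 57.4% of called genes were higher in AER, against 44.8% as reported. With no filter, Rspo1 was -4.02 (limma adjusted p = 0.0989) and Lgr4 -1.18 (limma adjusted p = 0.0974). With trend and robust eBayes, Rspo1 was -4.02 (limma adjusted p = 0.0693). Lgr4 was -0.84 with array weights (limma adjusted p = 0.059) and -1.11 with the slide row as a block (limma adjusted p = 0.107). Rspo4 passed at 1.00 with normexp (limma adjusted p = 0.0113), and at 1.04 with normexp and quantile normalization or the authors' deposited values (limma adjusted p = 0.00936). Whether the replicate numbers pair the samples was not settled. Deviations from the group mean correlated at -0.03, 0.19 and 0.13 between arrays of the same number. AER replicates 2 and 3 were each closest to the ectoderm array of their own number, and AER replicate 1 was not. With the replicate block 2444 genes (3041 probes) were called, and Rspo4 was 2.37 (limma adjusted p = 0.0234). Leaving out 1 array gave 2199 to 3275 genes, 2826 to 4221 probes, -4.83 to -3.13 for Rspo1, 5.07 to 5.77 for Rspo2, 1.31 to 2.44 for Rspo4 and -1.56 to -0.77 for Lgr4. Signal over background limited Lgr6 and the low arrays of Rspo1 and Rspo4.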
